A study of Mus musculus with 8 samples.

Results

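Mouse embryonic stem (ES) cells that lacked both histone demethylases Jmjd1a and Jmjd1b were compared with wild-type ES cells. The comparison took the 2 arrays titled double-KO and the 2 titled WT, 4 of the 8 arrays in the series, chosen by title and not by any measured value. Double-KO cells carried homozygous deletions of Jmjd1a and of Jmjd1b, and WT cells carried both genes intact. The other 4 arrays, 2 of cells without Jmjd1a (Jmjd1a-KO) and 2 of cells without Jmjd1b (Jmjd1b-KO), entered the estimate of the spread and were set beside double-KO where stated. All 8 samples share the growth medium with the cytokine LIF, which keeps mouse ES cells undifferentiated, and a protocol that names the compound OHT at 800 nM. Each array was made from 200 ng of total RNA.

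Jmjd1a and Jmjd1b (current gene symbols Kdm3a and Kdm3b) belong to the JmjC family of oxygen-dependent enzymes and remove methyl groups from lysine 9 of histone H3 (H3K9) in its mono- and dimethylated forms. H3K9 dimethylation is laid down mainly by the G9a and GLP methyltransferases (genes Ehmt2 and Ehmt1) and marks silent genes in euchromatin. In ES cells such marks lie on many lineage and germline genes, and demethylases act against their spread.

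The double-KO cells have their own history, which limits them as a model. A conditional Jmjd1b allele was placed in a Jmjd1a-deficient ES line, and OHT, the ligand of the Cre fusion protein MerCreMer, then deleted that allele. The labels describe the WT cells as derived from mice. The labels do not say if WT cells share the genetic background of the Jmjd1a-deficient line, or which replicate came from which conditional line. Loss of the enzymes, line history and exposure to active Cre therefore cannot be told apart in double-KO against WT. The replicates are titled biological, with no statement of separate derivation, so p-values measure only the spread between these samples.

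Values were deposited log2 levels, and a change is the double-KO mean minus the WT mean on that scale, ± SE of the limma fit over all 8 arrays. Of 45101 probe sets, 33599 (74.5%) had a span under 0.01 over the 8 arrays and are called flat here. A flat probe set holds no measured difference, and a flat gene is neither changed nor unchanged. The remaining 11502 probe sets represented 7181 genes, called measured. Array medians lay between 6.80 and 6.81, and a level near or below the lower quartile of the arrays (6.341 to 6.346) leaves the size of a change uncertain. The SD of the difference between replicates was 0.29 in double-KO and 0.15 in WT.

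The arrays were checked against their labels. The 8 ES cell markers had a mean level of 11.5 to 12.1 on the double-KO arrays and of 11.64 to 11.65 on the WT arrays. Esrrb, a nuclear receptor of the naive state, was the lowest of these markers on the double-KO arrays, at 7.68 and 9.58, against 9.70 and 9.78 in WT. The Y-linked gene Eif2s3y stood at 12.17 on double-KO replicate 1 and 3.73 on double-KO replicate 2, against 7.62 and 7.66 in WT. Uty behaved likewise, at 9.49 and 4.06 in double-KO against 7.94 and 7.90 in WT. The Jmjd1a-KO arrays split the same way by replicate number, with Eif2s3y at 11.72 and 3.19. Replicates 1 and 2 of double-KO and of Jmjd1a-KO thus differed in Y-linked RNA, which was low on replicate 2 of both groups. Whether same-numbered replicates share a line was not tested.

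Kdm3a had levels of 4.60 and 4.77 on the double-KO arrays and of 12.83 and 12.73 on the WT arrays. It fell by 8.10 ± 0.10 (adjusted p = 2.48e-06), the largest change of any measured gene in this comparison. Kdm3b stood at 7.06 and 7.66 in double-KO and at 9.91 and 9.96 in WT. It fell by 2.57 ± 0.19 (adjusted p = 0.000448). In Kdm3a, double-KO differed from Jmjd1a-KO by -0.29 (adjusted p = 0.072). In Kdm3b, double-KO differed from Jmjd1b-KO by 0.28 (adjusted p = 0.264). The sources used here do not say if the probes lie inside the deletions.

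Of the measured genes, 3441 (47.9%) passed the test in double-KO against WT. In bulk RNA, fewer cells of a type and less RNA per cell cannot be told apart. Of 7181 genes, 2019 rose (28.1%) and 1422 fell (19.8%) in double-KO against WT, at an adjusted p under 0.05. These shares are the background for every gene group below. Changes of at least 1 on the log2 scale were found in 471 genes that rose (6.56%) and 306 that fell (4.26%). The median change over all measured genes was 0.03, with quartiles at -0.23 and 0.35. The double-KO and WT arrays did not overlap in 5673 genes (79%), more than the 3441 that passed the test. Leaving out WT replicate 1 left 2080 genes past the threshold, and leaving out WT replicate 2 left 2089.

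Leaving out an array of a compared group lowers the precision of the fit, whatever that array holds. A lost call therefore does not show that the omitted array decided it. Many calls were lost in this way among the 330 named and listed genes followed here. Of these genes, 62 lost their call without double-KO replicate 1, 56 without double-KO replicate 2, 107 without WT replicate 1 and 101 without WT replicate 2. Among genes named below with a change of at least 1 in size, Plagl1, Jun, Irgm1, Cubn and Snhg14 missed the threshold without double-KO replicate 1. Otx2, Pou3f1, Fabp7, Aldoc and Dusp1 missed it without double-KO replicate 2, and Ero1a, Lefty2 and Gbx2 without either double-KO array. All of these except Snhg14 also missed it without either WT array. Stard4, Sox4, Lefty1 and Pcgf5 missed it without WT replicate 1, Cth, Mvd and Stag3 without WT replicate 2, and Got1 and Manba without either.

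**Figure D1:**
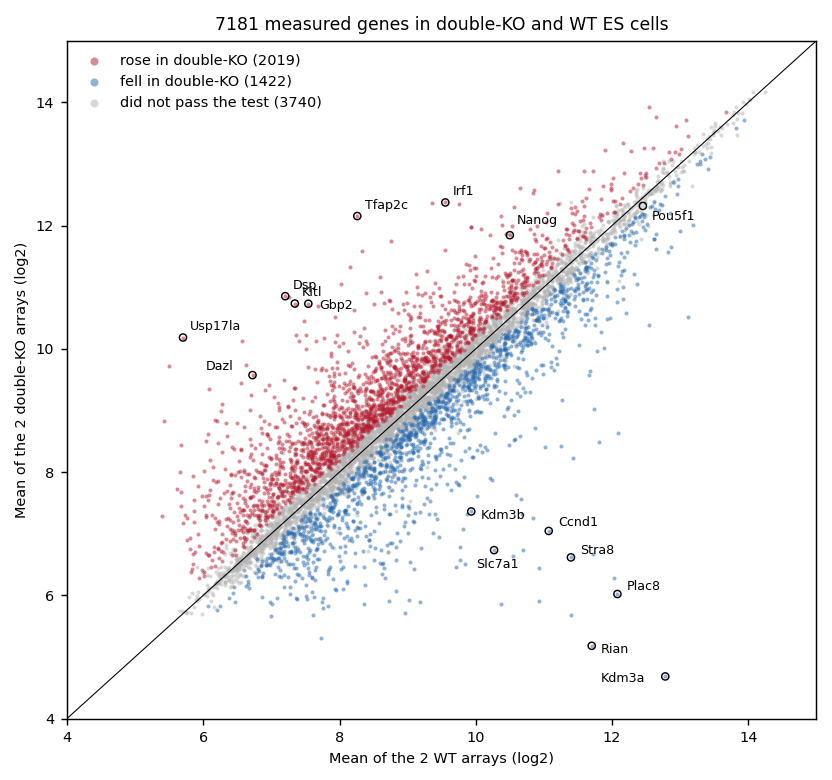
Mean log2 level of each of 7181 measured genes on the 2 double-KO arrays (vertical axis) against the 2 WT arrays (horizontal axis), with the line of equal levels. The 2019 genes that rose are red, the 1422 that fell are blue and those that did not pass the test are grey. Kdm3a lies farthest below the line and Usp17la farthest above it.

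The same fit set double-KO beside each single knockout. Against Jmjd1a-KO, 2128 genes passed the test (29.6%), 1284 higher (17.9%) and 844 lower (11.8%) in double-KO. Against Jmjd1b-KO, 3692 passed (51.4%), 2017 higher (28.1%) and 1675 lower (23.3%). The 3 comparisons share the double-KO arrays, so their calls are not independent. They are given side by side for some of the named genes and groups below.

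The largest rise was of Usp17la, a member of a family of near-identical deubiquitinase genes, so which copies were measured is uncertain. Its levels were 10.18 and 10.19 in double-KO and 5.66 and 5.75 in WT. The rise of 4.48 ± 0.06 (adjusted p = 2.48e-06) is uncertain in size, since the WT levels lay below the lower quartile of the arrays. Double-KO also stood 4.22 above Jmjd1a-KO (adjusted p = 7.01e-06) and 3.84 above Jmjd1b-KO (adjusted p = 6.11e-06). The transcript was near the bottom of the scale in WT, Jmjd1a-KO and Jmjd1b-KO cells and high only on the double-KO arrays.

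Tfap2c, a transcription factor of trophoblast and primordial germ cells, had levels of 12.14 and 12.17 in double-KO and of 8.16 and 8.36 in WT. It rose by 3.89 ± 0.11 (adjusted p = 4.94e-05). The Jmjd1a-KO arrays lay between, at 10.80 and 10.68, as did the Jmjd1b-KO arrays at 9.79 and 9.53. Double-KO was higher than Jmjd1a-KO by 1.41 (adjusted p = 0.00126) and than Jmjd1b-KO by 2.50 (adjusted p = 0.000147). The Tfap2c levels of the 4 groups did not overlap, with double-KO the highest and WT the lowest.

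Dsp, Cd200 and Kitl, among the 15 largest rises, act at the cell surface or in cell contacts. Dsp encodes desmoplakin, which ties desmosomes to keratin filaments, and stood at 11.13 and 10.58 in double-KO against 7.30 and 7.11 in WT, a rise of 3.65 ± 0.27. Cd200, a surface glycoprotein that restrains myeloid cells, stood at 8.73 and 8.92 in double-KO against 5.43 and 5.43 in WT and rose by 3.40 ± 0.08. Kitl, the ligand of the receptor Kit, stood at 11.08 and 10.39 in double-KO against 7.35 and 7.34 in WT, and rose by 3.39 ± 0.28. Each of the 3 was also higher in double-KO than in either single knockout, by 2.31 and 3.0 for Dsp, 1.57 and 2.08 for Cd200 and 1.47 and 3.71 for Kitl, Jmjd1a-KO before Jmjd1b-KO in each pair. Probe sets of Kitl differed in size, with changes of 0.72 to 3.39.

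Several other rises were met in a single knockout too. Rnf128, an X-linked E3 ubiquitin ligase, rose by 3.56 ± 0.51 against WT, while double-KO differed from Jmjd1a-KO by 0.96 (adjusted p = 0.21) and from Jmjd1b-KO by 0.45 (adjusted p = 0.497). Ndrg1, a gene induced by low oxygen, rose by 3.26 ± 0.52 and differed from Jmjd1b-KO by 1.28 (adjusted p = 0.0872). Anxa2, a calcium-dependent membrane-binding protein, rose by 3.01 ± 0.52 and differed from Jmjd1b-KO by 0.79 (adjusted p = 0.254). Nrk, an X-linked kinase gene active in placenta, rose by 3.02 ± 0.39 and differed from Jmjd1a-KO by 0.64 (adjusted p = 0.262). A difference that misses the threshold does not show that the groups are alike. Probe sets differed in size, with changes against WT of 0.11 to 3.02 for Nrk, 1.36 to 3.26 for Ndrg1 and 1.21 to 3.01 for Anxa2.

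The rest of the 15 were Cox7b2, a testis-type subunit of cytochrome oxidase (4.23), Vwa5a (3.57), C130073F10Rik (3.26), the interferon-inducible GTPase Gbp2 (3.19), Snhg14 (3.17) and AU015836 (3.11). A second Vwa5a probe set changed by 0.05, so this rise rests on a single probe set. Snhg14, the long host RNA of the imprinted Snrpn and Ube3a region, stood at 11.77 and 10.88 in double-KO and at 9.11 and 7.20 in WT. It differed from Jmjd1a-KO by 0.75 (adjusted p = 0.43) and from Jmjd1b-KO by 3.84 (adjusted p = 0.0051). Its WT arrays differed more than those of other named genes, and its call was lost without double-KO replicate 1.

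**Figure D2:**
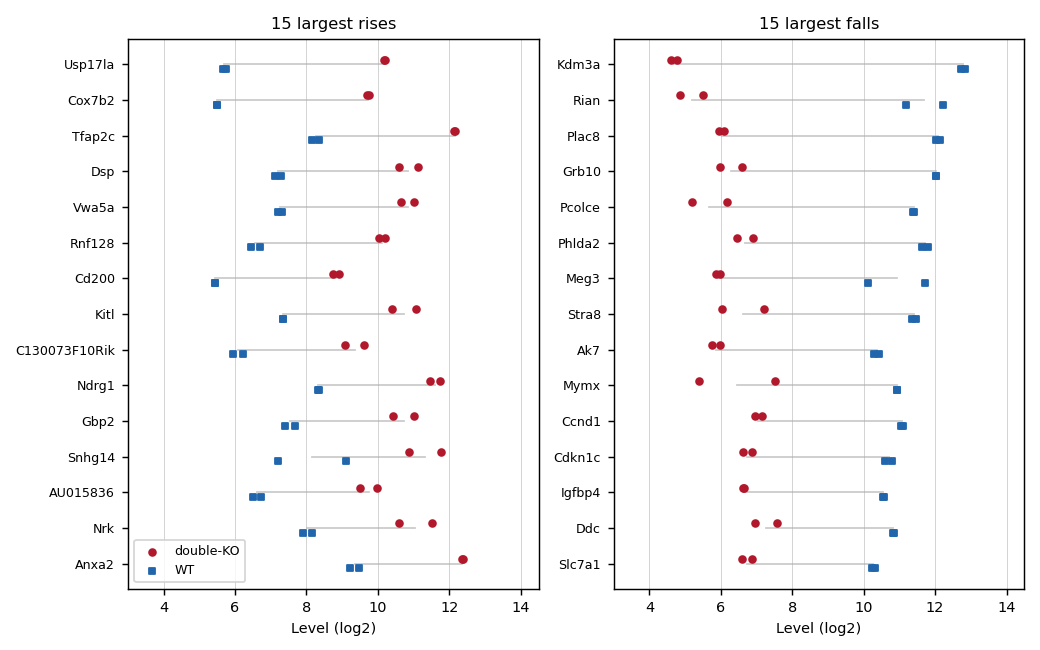
Log2 level on each array for the 15 genes with the largest rise (left) and the 15 with the largest fall (right) in double-KO against WT. Circles are the 2 double-KO arrays, squares the 2 WT arrays, and the grey line joins the group means. The arrays of the groups do not overlap for any gene shown, as the rule that chose them required.

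Among the falls, Plac8, a cysteine-rich protein named for its placental expression, had levels of 5.95 and 6.09 in double-KO and of 12.03 and 12.13 in WT. It fell by 6.06 ± 0.21 (adjusted p = 7.81e-05) and was also lower than in Jmjd1a-KO (-3.26) and Jmjd1b-KO (-5.79). Pcolce, an enhancer of procollagen processing, stood at 5.19 and 6.16 in double-KO against 11.38 and 11.41 in WT and fell by 5.72 ± 0.30. Both transcripts ended below the lower quartile of the arrays in double-KO and near the top of the scale in WT, so the sizes are uncertain.

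Stra8, which retinoic acid induces before meiosis, had levels of 6.03 and 7.20 in double-KO and of 11.34 and 11.45 in WT, and fell by 4.78 ± 0.35 (adjusted p = 0.000454). Ccnd1, the gene of cyclin D1, stood at 6.95 and 7.14 in double-KO and at 11.03 and 11.11 in WT. It fell by 4.03 ± 0.30 (adjusted p = 0.000461), and all of its 3 informative probe sets fell, by 3.09 at the least. Double-KO was lower than Jmjd1a-KO by -2.77 and than Jmjd1b-KO by -3.37 in Ccnd1. Mymx, a small membrane protein of muscle cell fusion, fell by 4.48 ± 0.66 with unequal double-KO arrays, at 5.38 and 7.52 against 10.93 and 10.93 in WT.

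The remaining large falls were of Ak7, an adenylate kinase of cilia (-4.51), Igfbp4, which binds insulin-like growth factors (-3.91), Ddc, the enzyme that makes dopamine and serotonin from their precursors (-3.57), Slc7a1, the main carrier of arginine and lysine (-3.54), and 5 imprinted genes described below. For each of these 4 the double-KO level was lower than in either single knockout too, with differences of -1.87 or lower. Other Igfbp4 probe sets had smaller changes, the smallest at -0.13.

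Most measured genes of 4 lists that supply amino acids to the cell fell. In the integrated stress response, eIF2 kinases raise translation of the transcription factor ATF4, which with C/EBP partners induces amino acid synthesis, transport and tRNA charging. Of 17 measured members of 22 listed for this response, 12 fell, 0 rose and 5 did not pass the test, with a median change of -0.93 against 0.03 over all measured genes. Atf4 itself stood at 10.53 and 11.09 in double-KO and at 12.15 and 12.16 in WT, and fell by 1.35 ± 0.17 (adjusted p = 0.0021). Chac1, which degrades glutathione, stood at 5.86 and 7.07 in double-KO and at 9.67 and 9.76 in WT and fell by 3.25 ± 0.37. Nupr1, a small stress-induced chromatin protein, stood at 5.42 and 6.36 in double-KO against 9.17 and 9.21 in WT, a fall of 3.30 ± 0.34. No double-KO array overlapped a WT array in these 3 genes, as in 79% of all measured genes, and replicate 1 of double-KO was the lower in each.

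The response did not fall in every branch. Trib3 (-1.25), Cebpb (-1.09), Atf3 (-0.93), Cebpg (-0.66) and Atf5 (-0.53), regulators within the response, fell. Ddit3, the gene of the stress factor CHOP, changed by -0.24 ± 0.31 (adjusted p = 0.56) with 7.31 and 7.90 in double-KO against 7.91 and 7.78 in WT. Ddit4, an inhibitor of mTORC1, changed by 0.57 ± 0.59 (adjusted p = 0.47). The kinase Eif2ak3, known as PERK, changed by -0.29 ± 0.12 (adjusted p = 0.095), and Eif2ak4, the amino acid sensor GCN2, was flat.

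Of 20 measured genes of 26 listed for serine, one-carbon and amino acid synthesis, 16 fell, 0 rose and 4 did not pass the test, with a median of -0.92. Without WT replicate 2, 10 fell. In the serine branch Psat1 fell by 2.16 ± 0.17, Psph by 1.5 ± 0.13 and Phgdh by 0.43 ± 0.11. Psat1 stood at 10.12 and 10.64 in double-KO and at 12.54 and 12.54 in WT. In the mitochondrial folate branch Mthfd2, which oxidises methylene-tetrahydrofolate, stood at 7.92 and 8.92 in double-KO against 11.16 and 11.33 in WT and fell by 2.83 ± 0.31 (adjusted p = 0.0013).

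Transamination and branched-chain metabolism followed the same direction. Bcat1, the cytosolic branched-chain aminotransferase, fell by 3.36 ± 0.37, with 6.72 and 7.91 in double-KO and 10.62 and 10.75 in WT, although its 3 probe sets ranged between -3.36 and -0.28. Gpt2 (-1.72), Aldh18a1 (-1.71), which starts proline synthesis, Got1 (-1.22) and Cth (-1.14), which makes cysteine, fell as well. Asns, asparagine synthetase and a known ATF4 target, did not pass the test: its levels were 10.48 and 11.50 in double-KO and 11.55 and 11.66 in WT, a change of -0.62 ± 0.34 (adjusted p = 0.19). Gldc (0.05), Got2 (-0.04) and Glul (0.38), the glutamine synthetase, did not pass either.

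Of 13 measured amino acid transporters of 21 listed, 9 fell and 1 rose, with a median of -0.73. Slc7a1 stood at 6.60 and 6.87 in double-KO and at 10.31 and 10.23 in WT, and fell by 3.54 ± 0.27 (adjusted p = 0.00048). The heavy chain Slc3a2 (-0.77) and its light chains Slc7a5 (-0.73) and Slc7a7 (-1.07), which together exchange large neutral and cationic amino acids, all fell. The mitochondrial aspartate-glutamate carriers Slc25a12 (-1.47) and Slc25a13 (-0.42) fell too. Slc6a6, the taurine carrier, was the member that rose (0.66 ± 0.09, adjusted p = 0.0023). The cystine carrier Slc7a11 and the glutamine carrier Slc38a2 were flat.

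Aminoacyl-tRNA synthetases, the enzymes that load amino acids onto tRNAs, had the highest share of falls among the lists. Of 18 measured members of 20 listed, 15 fell (83.3%) and 0 rose, with a median of -0.68. The falls ranged between -1.28 for Cars, the cysteine enzyme, and -0.31 for Vars, the valine enzyme. Nars stood at 10.46 and 10.65 in double-KO against 11.62 and 11.64 in WT and fell by 1.07 ± 0.10 (adjusted p = 0.00078). The 3 that did not pass were Rars (-0.11), Sars (-0.06) and Qars (0.05). Cars is listed under the stress response as well.

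Against the single knockouts these groups stood the same way. In double-KO, 8 of 17 stress response genes were lower than in Jmjd1a-KO and 15 lower than in Jmjd1b-KO. For serine and one-carbon genes, 14 of 20 were lower than in Jmjd1a-KO and 17 than in Jmjd1b-KO. For transporters the counts were 9 and 10 of 13, and for tRNA synthetases 12 and 17 of 18. Higher members numbered 0 or 1 in each of these counts. The background shares of lower genes were 11.8% against Jmjd1a-KO and 23.3% against Jmjd1b-KO.

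**Figure D3:**
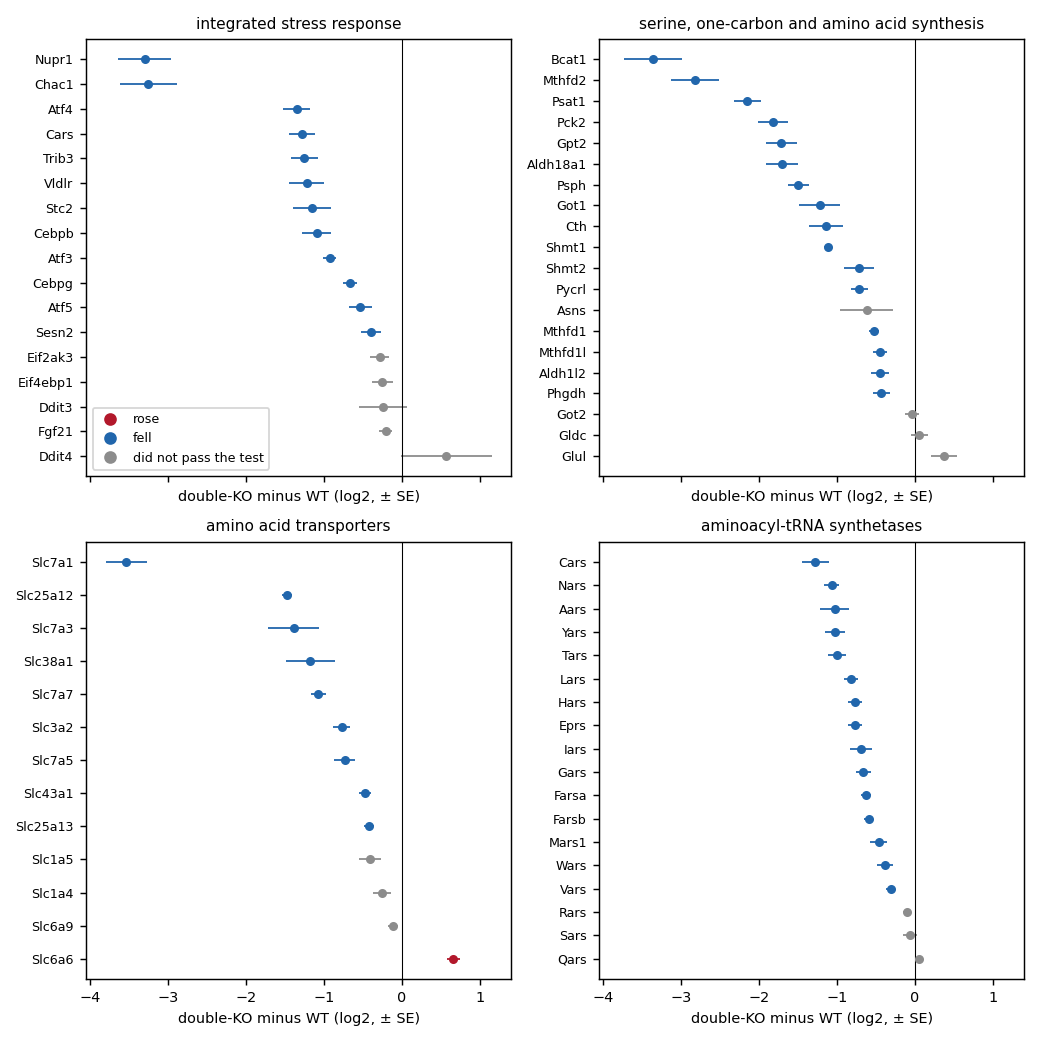
Change in double-KO against WT (log2, points with SE bars) for every measured member of 4 lists of amino acid supply. Blue points fell, red rose and grey did not pass the test. Points lie left of 0 for most genes in each panel, with Bcat1, Slc7a1, Nupr1 and Chac1 farthest to the left and Slc6a6 as the red point.

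The promoters of these genes were searched for the C/EBP-ATF response element that ATF4 binds, spelled TGATGNAA here, on both strands of the 300 bases that RefSeq places around each gene start (GRCm38.p6, 250 before and 50 after). It was found in 16 of 51 measured members of the 4 lists that had a window (31.4%), in 147 of 5825 measured genes with a window (2.52%) and in 4.51% of all genes in the table. For tRNA synthetases it was in 5 of 9 that fell and 0 of 2 that did not pass, and for the stress response in 5 of 11 that fell and 1 of 4 that did not pass. For serine and one-carbon genes it was in 2 of 13 that fell and 1 of 4 that did not pass, and for transporters in 1 of 6 that fell and 1 of 2 that did not pass. The matches below are shown because their genes fell in double-KO. Capitals mark the match, written on the strand of the gene, and 12 bases stand on either side.
Atf3, chr1:191183424-191183455, minus strand: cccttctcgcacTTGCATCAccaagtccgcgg
Chac1, chr2:119351037-119351068, plus strand: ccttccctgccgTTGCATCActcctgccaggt
Nupr1, chr7:126625561-126625592, minus strand: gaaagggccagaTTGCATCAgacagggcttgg
Vldlr, chr19:27216808-27216839, plus strand: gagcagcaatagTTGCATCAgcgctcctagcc
Got1, chr19:43524688-43524719, minus strand: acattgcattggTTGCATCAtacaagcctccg
Pck2, chr14:55540151-55540182, plus strand: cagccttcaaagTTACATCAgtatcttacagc
The 6 printed read as the reverse complement of the spelling above, while Slc7a7 and Yars, which also fell, carry it on the strand of the gene. Atf3 fell by 0.93, Chac1 by 3.25, Nupr1 by 3.30, Vldlr, the receptor for very low density lipoprotein, by 1.22, Got1 by 1.22 and Pck2, the mitochondrial form of PEP carboxykinase, by 1.82. A match describes the letters only, and the lists were drawn up around a pathway in which this element is known, so its share is no independent result.

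Chaperones and enzymes of protein folding in the endoplasmic reticulum (ER) fell in part. Of 18 measured members of 21 listed, 10 fell and 0 rose, with a median of -0.33, and 6 fell without WT replicate 2. Xbp1, a transcription factor activated by splicing under ER stress, stood at 10.05 and 9.99 in double-KO and at 11.81 and 11.96 in WT and fell by 1.86 ± 0.07 (adjusted p = 9.5e-05). Herpud1, which serves ER-associated degradation, fell by 2.19 ± 0.14, and Manf, a secreted ER stress protein, by 1.07 ± 0.15. The chaperone Hspa5, known as BiP, stood at 11.57 and 11.26 in double-KO and at 12.08 and 12.11 in WT and fell by 0.68 ± 0.10. Hsp90b1 (-0.05) and Canx (-0.03), which are chaperones of the same compartment, did not pass the test.

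The ER stress response element, spelled CCAAT, any 9 bases and CCACG and searched on both strands of the same windows, was found in 8 of 16 members with a window and in 12 of 5825 measured genes (0.206%). It was as frequent among members that fell (4 of 8) as among those that did not pass (4 of 8). The members below show both kinds, with capitals for the match.
Hspa5, chr2:34772013-34772055, plus strand: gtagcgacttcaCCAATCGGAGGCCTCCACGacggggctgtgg
Pdia6, chr12:17266479-17266521, plus strand: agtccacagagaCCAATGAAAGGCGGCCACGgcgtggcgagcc
Dnajc3, chr14:118937815-118937857, plus strand: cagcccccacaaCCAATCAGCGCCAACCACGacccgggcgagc
Calr, chr8:84847063-84847105, minus strand: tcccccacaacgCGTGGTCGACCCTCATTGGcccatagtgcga
Hsp90b1, chr10:86705521-86705563, minus strand: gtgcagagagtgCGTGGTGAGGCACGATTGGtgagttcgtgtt
Hspa5, Pdia6 (-0.23), Dnajc3 (-0.23) and Calr (-0.56) fell, and Hsp90b1 did not pass the test. The printed matches of Calr and Hsp90b1 lie in the opposite orientation to the others printed. Hsp90b1 holds a further match, not printed, on the strand of the gene.

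Sterol and fatty acid synthesis genes fell in most cases. Of 29 measured genes of 35 listed, 16 fell and 5 rose, with a median of -0.57. Lss, lanosterol synthase, stood at 8.16 and 8.64 in double-KO and at 9.90 and 9.91 in WT and fell by 1.5 ± 0.22 (adjusted p = 0.0037). Sc5d (-1.20), Msmo1 (-1.36), Mvd (-1.03) and the cholesterol transporter Stard4 (-1.18) fell, as did Fasn, fatty acid synthase (-1.06 ± 0.08), and the desaturase Scd2 (-1.03).

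The members that rose were Cyp51, which demethylates lanosterol (0.96), the feedback regulator Insig1 (0.62), Ebp (0.52), Acss2 (0.47) and the transcription factor Srebf2 (0.39). That count was 3 without either Jmjd1b-KO array, 2 when double-KO replicate 2 or WT replicate 2 was left out, and 1 when WT replicate 1 was. Against Jmjd1a-KO, 19 of the 29 were lower and 1 higher in double-KO. Against Jmjd1b-KO, 18 were lower and 2 higher.

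Many germline and meiosis genes are held silent in somatic and ES cells, by DNA methylation and H3K9 methylation among other means. Not every gene listed was silent in WT, where Stra8 stood at 11.34 and 11.45. Of 44 listed, 27 were measured, 14 rose and 6 fell in double-KO against WT, with a median of 0.32. The count of rises was 13 or 14 without any single array. Dazl, an RNA-binding protein of germ cells, stood at 9.60 and 9.55 in double-KO and at 6.73 and 6.72 in WT, and rose by 2.85 ± 0.08 (adjusted p = 4.5e-05). Mael, of the piRNA pathway, stood at 9.08 and 9.27 in double-KO and at 7.24 and 7.39 in WT and rose by 1.86 ± 0.15. Ddx4, the germ cell helicase, rose by 1.22 ± 0.09, and Tex19.1, which guards germ cells against transposons, by 1.74 ± 0.19.

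Slc25a31, the ADP/ATP carrier of germ cells (2.06), Prdm1, which specifies primordial germ cells (1.72), the meiotic cohesin subunit Stag3 (1.64), the kinase Stk31 (1.22) and the synaptonemal complex genes Sycp1 (1.10) and Sycp3 (1.03) rose as well. Others moved the opposite way. Beside Stra8, the falls were of Hsf2bp (-1.91), the piRNA factor Tdrd12 (-1.61), Sohlh2, a transcription factor of early germ cells (-1.60), Piwil2 (-0.76) and Hormad1, of the meiotic chromosome axis (-0.69). Dmc1, the meiotic recombinase, changed by -0.36 ± 0.14 (adjusted p = 0.088). Double-KO was higher than Jmjd1a-KO in 18 of the 27 genes and lower in 1. Against Jmjd1b-KO, 10 were higher and 13 lower.

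Individual genes show that pattern. Stk31 was higher in double-KO than in Jmjd1a-KO by 1.70 (adjusted p = 0.00064) and differed from Jmjd1b-KO by -0.16 (adjusted p = 0.24). Hormad1 was higher than in Jmjd1a-KO by 0.72 (adjusted p = 0.017) and lower than in Jmjd1b-KO by -2.59 (adjusted p = 0.0002). Dazl was higher than in Jmjd1a-KO by 2.78 and than in Jmjd1b-KO by 1.53.

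Interferon-inducible genes moved in both directions. Of 40 listed, 23 were measured, 10 rose and 4 fell, with a median of 0.26, while 15 were flat, the classical targets Ifit1, Ifit2, Ifit3 and Irf7 among them. Irf1, a transcription factor that interferon gamma induces, stood at 12.37 and 12.38 in double-KO and at 9.54 and 9.57 in WT. It rose by 2.82 ± 0.07 (adjusted p = 3.2e-05). Gbp2 stood at 11.02 and 10.44 in double-KO and at 7.40 and 7.69 in WT and rose by 3.19 ± 0.25 (adjusted p = 0.000533). Tapbp, which loads peptides onto MHC class I, rose by 2.23 ± 0.12. The GTPases Igtp (1.83), Gbp3 (1.43) and Irgm1 (1.16), the immunoproteasome subunit Psmb8 (1.05) and Oasl2, of the oligoadenylate synthetase family (1.10), rose too.

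The genes that fell were Ifitm3 (-2.72), Ly6e (-2.05), Ifitm1 (-1.45) and Oas1a (-0.99). Ifitm3 and Ifitm1 encode membrane proteins that block virus entry and are also known from early germ cells, Ly6e is a surface protein, and Oas1a, of the same family as Oasl2, is a sensor of double-stranded RNA. Without double-KO replicate 2, 7 members fell. The MHC class I genes H2-K1 (-0.06), H2-D1 (0.09) and B2m (0.39, adjusted p = 0.14) did not pass the test. Double-KO was higher than Jmjd1a-KO in 13 of the 23 and lower in 2, and higher than Jmjd1b-KO in 10 and lower in 8. Gbp2 was higher by 4.93 and 3.99 and Irf1 by 3.61 and 2.75 against Jmjd1a-KO and Jmjd1b-KO.

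**Figure D4:**
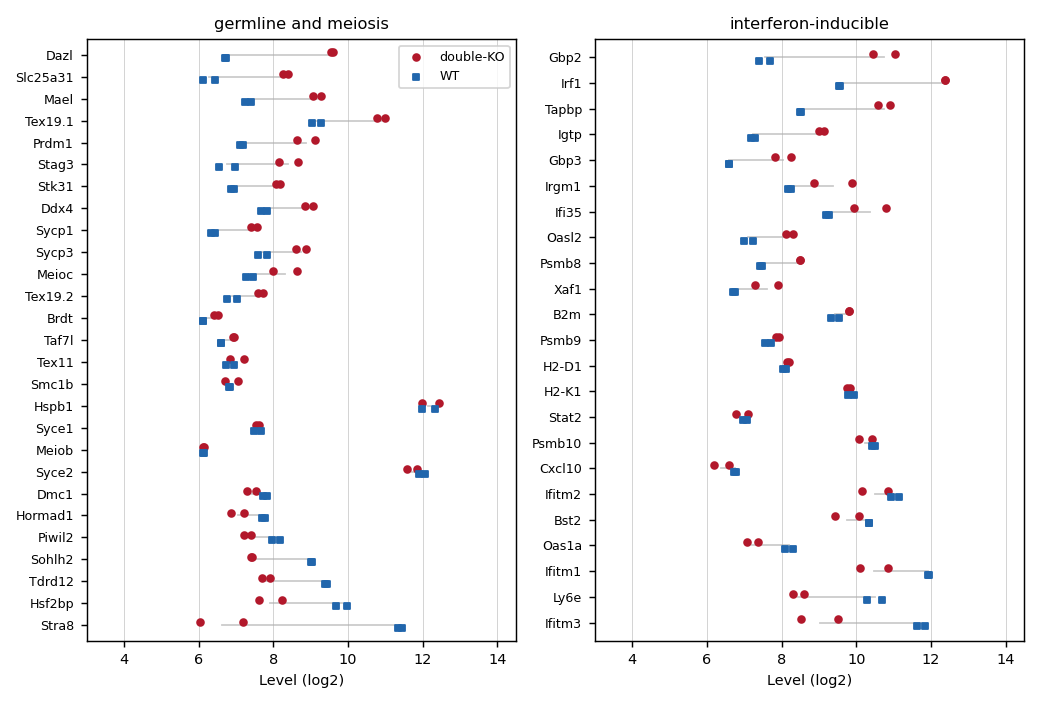
Log2 level on each array for all measured members of the germline and meiosis list (left, 27 genes) and the interferon-inducible list (right, 23 genes), ordered by change. Circles are the 2 double-KO arrays and squares the 2 WT arrays. Dazl and Gbp2 head the panels, and Stra8 and Ifitm3, whose double-KO arrays lie left of the WT arrays, stand at the foot.

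Promoters of the interferon list were searched for the interferon-stimulated response element, spelled GAAA, any 2 bases and GAAA, and the gamma-activated site, spelled TTCNNNGAA, on both strands. The GAAA pair was found in 11 of 22 members with a window and in 3.54% of measured genes with a window. By direction, it was in 4 of 10 that rose, 2 of 3 that fell and 5 of 9 that did not pass. The TTCNNNGAA spelling was in 7 of 22 members (31.8%) and 7.69% of measured genes, with 4 of 10 that rose, 2 of 3 that fell and 1 of 9 that did not pass. Matches are printed for genes that moved in both directions, with the GAAA pair in Gbp2, Igtp, Irgm1 and Oas1a and the TTCNNNGAA spelling in Irf1 and Psmb8, in capitals.
Gbp2, chr3:142620592-142620625, plus strand: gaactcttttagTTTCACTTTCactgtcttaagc
Igtp, chr11:58199510-58199543, plus strand: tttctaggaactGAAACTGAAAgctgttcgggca
Irgm1, chr11:48871423-48871456, minus strand: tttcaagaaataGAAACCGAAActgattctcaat
Oas1a, chr5:120907526-120907551, minus strand: tctcgggaaatgGAAACTGAAAatct
Irf1, chr11:53769912-53769944, plus strand: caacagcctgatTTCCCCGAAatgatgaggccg
Psmb8, chr17:34198086-34198118, plus strand: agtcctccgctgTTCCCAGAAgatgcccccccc
Igtp, which rose, and Oas1a, which fell, carry the same 10 letters, so the spelling did not separate the directions.

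Of 16 measured core pluripotency genes of 17 listed, 3 rose (18.8%, beside 28.1% of all measured genes), 3 fell (18.8%, beside 19.8%) and 10 did not pass the test, with a median of -0.01. Pou5f1, the gene of Oct4, stood at 12.07 and 12.57 in double-KO and at 12.45 and 12.46 in WT, a change of -0.13 ± 0.16 (adjusted p = 0.52). Nanog stood at 11.60 and 12.09 in double-KO and at 10.57 and 10.43 in WT, and rose by 1.34 ± 0.21 (adjusted p = 0.0041). Sox2 (0.67) and the Nodal co-receptor Tdgf1 (0.65) rose, and Lin28a (-0.96), Zfp281 (-0.37) and L1td1 (-0.27) fell. The falls numbered 0 without WT replicate 1 and 1 without WT replicate 2 or double-KO replicate 1.

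Naive and formative genes moved both ways. Of 22 measured naive genes, 5 rose (22.7%, beside 28.1% of all measured genes) and 4 fell (18.2%, beside 19.8%). Klf2, a naive transcription factor, stood at 12.49 and 12.74 in double-KO and at 10.59 and 10.71 in WT and rose by 1.97 ± 0.11 (adjusted p = 0.00022). Zfp42 (1.33), the gp130 receptor Il6st (0.79), Dppa3 (0.76) and Prdm14 (0.71) rose. Gbx2, a homeobox factor (-2.37), Manba (-2.09), the LIF receptor Lifr (-0.75) and Pecam1 (-0.63) fell. Klf4 stood at 8.74 and 10.25 in double-KO against 9.86 and 9.83 in WT, and Fgf4 at 7.58 and 10.37 against 9.80 and 10.01. In both of these genes the double-KO arrays lay on either side of the WT arrays. Leaving out double-KO replicate 1 gave 1 naive gene that fell, leaving out double-KO replicate 2 gave 7, and leaving out WT replicate 1 or 2 gave 0 or 1.

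Of 21 measured formative and primed epiblast genes, 5 rose (23.8%, beside 28.1% of all measured genes) and 6 fell (28.6%, beside 19.8%). Fgf5, a growth factor of the epiblast, stood at 9.22 and 8.47 in double-KO and at 6.14 and 6.20 in WT and rose by 2.67 ± 0.28 (adjusted p = 0.0012). Otx2 (1.11), Spry2 (1.31) and Igfbp2 (1.18) rose. Car14 (-2.28), the POU factor Pou3f1 (-1.72), Sox4 (-1.45) and the ETS factors Etv5 (-1.09) and Etv4 (-0.85) fell. Without WT replicate 1 or WT replicate 2, 3 rose.

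Trophoblast genes were mostly flat. Of 22 listed, 7 were measured, 5 rose and 0 fell, with a median of 1.63, and the defining factors Cdx2, Elf5 and Gata3 were among 14 flat members. Beside Tfap2c, the keratins Krt8 (2.40), Krt18 (1.72) and Krt19 (1.63) and the T-box factor Eomes (1.16) rose. Eomes was also the single gene that rose among 3 measured of 18 listed for mesoderm and primitive streak. Krt8 stood at 10.38 and 9.98 in double-KO and at 7.57 and 7.98 in WT. Keratins are shared with other epithelia, and the 3 keratins were also higher in double-KO than in Jmjd1a-KO, by 1.84 to 2.37. On the Jmjd1b-KO arrays Krt8 (8.82 and 9.11) and Krt18 (8.83 and 9.04) lay above WT too, where Krt18 stood at 7.86 and 8.07. Of the 7 measured genes, 4 were higher and 0 lower in double-KO than in Jmjd1a-KO, with a median difference of 1.41. Against Jmjd1b-KO, 4 were higher and 2 lower, with a median difference of 0.51.

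In the list of epithelial junctions, 12 of 19 measured members of 30 listed rose and 0 fell, with a median of 0.51. The desmosome genes Dsp (3.65), Pkp2 (1.98), Dsg2 (1.17) and Dsc2 (0.80) rose. Cldn7, a claudin of tight junctions, stood at 10.51 and 10.76 in double-KO and at 8.10 and 8.33 in WT and rose by 2.42 ± 0.38 (adjusted p = 0.0045). The membrane protease St14 (1.66), the epithelial splicing regulator Esrp1 (1.00) and the adhesion molecule Epcam (0.88) rose too. Cdh1, which encodes E-cadherin, did not pass the test, at 11.45 and 11.50 in double-KO and 11.60 and 11.53 in WT.

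Basement membrane and endoderm genes rose in 11 of 15 measured members of 26 listed and fell in 2, with a median of 0.75. The basement membrane genes were the collagen IV chains Col4a1 (1.36) and Col4a2 (0.92), the laminin chains Lama1 (1.01), Lamb1 (0.82) and Lamc1 (0.56), and Nid2 (0.75) and Nid1 (0.51). Sox17, an endoderm factor, stood at 7.27 and 6.72 in double-KO and at 5.93 and 5.90 in WT and rose by 1.07 ± 0.20. Gata6 (0.48) and the receptor Cubn (1.48) rose, whereas Gata4, Foxa2, Sox7 and Afp were flat and Dab2 (0.37, adjusted p = 0.2) did not pass. Sparc (-0.66) and Amn (-0.48) fell.

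In the Kit pathway 4 of 7 measured genes rose and 0 fell. Kit, the receptor of Kitl, stood at 9.06 and 9.50 in double-KO and at 8.35 and 8.21 in WT and rose by 1.00 ± 0.18 (adjusted p = 0.0066). The adaptors Gab2 (0.73) and Pik3r1 (0.32) rose, while Grb2 (0.17) and Cbl (-0.19) did not pass the test. Ligand and receptor were thus both higher than in WT.

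Fibroblast and mesenchymal matrix genes were listed to follow other cells in the cultures. Of 15 measured members of 29 listed, 10 fell and 1 rose, with a median of -0.56. The rise was of Timp2 (0.24) and was lost without either double-KO array, WT replicate 1 or either Jmjd1b-KO array. Col1a2 stood at 7.73 and 7.53 in double-KO and at 10.52 and 10.67 in WT and fell by 2.96 ± 0.16 (adjusted p = 0.00022). Col1a1 (-2.40), the matrix protein Tgfbi (-2.73), the collagen chaperone Serpinh1 (-2.15), Col5a2 (-1.77) and Pdgfrb (-1.09) fell, while Fn1 (-0.31) and Col3a1 (0.17) did not pass the test. The 7 measured of 10 fibroblast or feeder markers had a mean level of 7.08 to 7.11 on the double-KO arrays and of 8.07 to 8.17 on the WT arrays, with Lum, Dcn and Prrx1 flat. The part of other cells in the WT samples in this difference was not tested.

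The comparison with Jmjd1b-KO ran otherwise for collagens. Double-KO was higher than Jmjd1b-KO in Col3a1 by 3.05 (adjusted p = 0.00023) and in Col1a2 by 0.78 (adjusted p = 0.01), whereas in Col1a2 it was lower than Jmjd1a-KO by -1.26 (adjusted p = 0.0049). Of 20 measured smooth muscle type contractile genes, 7 rose (35%, beside 28.1% of all measured genes) and 3 fell (15%, beside 19.8%), with a median of 0.05. The rises were led by Ccn2, a target of YAP and TGF-beta signalling (2.51), Cnn2 (0.79) and Cald1 (0.70), and Myl9 (-2.76) was the lowest of the falls. Without double-KO replicate 1, 5 contractile genes fell. Acta2 stood at 11.54 and 10.65 in double-KO and at 11.95 and 12.24 in WT, a change of -1.0 ± 0.40 (adjusted p = 0.088).

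Neural genes fell in 6 of 15 measured members and rose in 3. Neurod1, a neuronal transcription factor, stood at 5.94 and 5.89 in double-KO and at 8.96 and 9.09 in WT and fell by 3.11 ± 0.35 (adjusted p = 0.0015). Tubb3, neuronal tubulin, fell by 2.30 ± 0.43, Crmp1 by 1.82 ± 0.24 and Fabp7, of radial glia, by 3.10 ± 0.68. The 5 measured neural markers averaged 7.23 to 7.47 on the double-KO arrays and 9.22 to 9.32 on the WT arrays. They averaged 8.06 to 9.38 on the Jmjd1a-KO arrays and 7.01 to 7.05 on the Jmjd1b-KO arrays. Of the 15 listed genes measured, 0 were higher and 3 lower in double-KO than in Jmjd1a-KO, and 6 were higher and 3 lower than in Jmjd1b-KO. Fewer neural genes fell against WT without double-KO replicate 2, WT replicate 1 or WT replicate 2. The rises were of Dpysl3 (0.61), Nrcam (0.40) and Map2 (0.38), and 1 rose without double-KO replicate 2 or WT replicate 1. The part of other cells in this difference was not tested. Sox1 (-1.19, adjusted p = 0.22) and Pax6 (0.11, adjusted p = 0.65) did not pass the test.

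Imprinted genes, which are expressed from the allele of a single parent, were listed by that parent. Of 17 measured maternally expressed genes of 33 listed, 6 fell and 2 rose, and of 19 measured paternally expressed genes of 31 listed, 10 rose and 1 fell, with medians of -0.04 and 0.50. Without single arrays the 2 rises numbered 1 to 4 and the 1 fall 0 to 2. The 2 rises were 4 without either Jmjd1a-KO array and 1 without double-KO replicate 1, either WT array or either Jmjd1b-KO array. On distal chromosome 12 the noncoding RNAs Rian, Meg3 and Mirg fell, with changes of -6.52 ± 0.37, -5.01 ± 0.50 and -2.49 ± 0.23. Rian stood at 5.51 and 4.85 in double-KO and at 12.21 and 11.19 in WT. Rian differed from Jmjd1a-KO by 0.19 (adjusted p = 0.745) and Meg3 by -0.07 (adjusted p = 0.937), and Mirg did not pass that test either (adjusted p = 0.998). Against Jmjd1b-KO, double-KO was lower by -5.56 in Rian, -4.34 in Meg3 and -1.71 in Mirg. Probe sets of Meg3 ranged between -6.02 and -0.21, and those of Rian between -6.52 and -1.38.

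On distal chromosome 7, Phlda2, which restrains placental growth, stood at 6.44 and 6.90 in double-KO and at 11.64 and 11.80 in WT and fell by 5.05 ± 0.24 (adjusted p = 0.000172). Cdkn1c, an inhibitor of cyclin-dependent kinases, fell by 3.95 ± 0.27, with 6.86 and 6.62 in double-KO against 10.61 and 10.78 in WT. Phlda2 was lower than in Jmjd1a-KO by -2.95 (adjusted p = 0.00137), and Cdkn1c differed from Jmjd1a-KO by -0.29 (adjusted p = 0.464). Ascl2 (-0.04) and Cd81 (0.19), neighbours in that region, did not pass the test. Grb10, a growth inhibitor on chromosome 11, stood at 5.98 and 6.59 in double-KO and at 12.03 and 12.04 in WT, and fell by 5.75 ± 0.40 (adjusted p = 0.000391).

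Among paternally expressed genes the rises were of Plagl1, a zinc finger factor (2.06), Sfmbt2 (1.62), Sgce (1.61), Ndn (1.23), Peg3 (1.23), Mkrn3 (1.11), Impact (0.98), Snrpn (0.78), Peg10 (0.63) and Slc38a4 (0.50). Peg3 stood at 11.14 and 10.98 in double-KO and at 9.96 and 9.71 in WT. Of the 19 measured genes, 4 were higher and 3 lower in double-KO than in Jmjd1a-KO, with a median difference of -0.02. Against Jmjd1b-KO, 12 were higher and 0 lower, with a median difference of 0.72. Impact stood higher in Jmjd1a-KO, at 11.59 and 11.66, than in double-KO, at 11.19 and 10.98. Snrpn, Ndn and Mkrn3 lie in the region of Snhg14 on chromosome 7, while Magel2 of that region was flat. Igf2 (-0.13, adjusted p = 0.32) and Mest (-0.05, adjusted p = 0.94) did not pass the test, and Nap1l5 (-0.73) fell. Calcr (1.58) and Gnas (0.36) were the maternally expressed genes that rose. Parental alleles were not distinguished on the arrays.

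Genes of DNA methylation fell in 5 of 11 measured members and rose in 1. Dnmt3a, a de novo methyltransferase, stood at 8.15 and 8.82 in double-KO and at 11.83 and 11.78 in WT, and fell by 3.32 ± 0.28 (adjusted p = 0.00067), with 5 probe sets between -3.32 and -0.44. Its cofactor Dnmt3l fell by 2.10 ± 0.30, and Dnmt3b (-0.55), the remodeller Hells (-0.52) and Mbd3 (-0.37) fell. Tet1 (-0.66, adjusted p = 0.14) and Tet2 (-0.64, adjusted p = 0.17) did not pass, and the maintenance enzyme Dnmt1 was flat. The count of falls was 2 without WT replicate 1 and 3 without WT replicate 2. Dnmt3a was lower in double-KO than in Jmjd1a-KO (-2.19) and Jmjd1b-KO (-3.30), and Dnmt3l differed from Jmjd1a-KO by -0.54 (adjusted p = 0.23).

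Other H3K9 enzymes and readers were listed with the deleted genes. Of 14 measured members of 27, 6 fell, the deleted genes included, and 1 rose. Beside Kdm3a and Kdm3b the falls were of Ehmt2, which encodes G9a (-0.67 ± 0.19, adjusted p = 0.03), Prdm2 (-0.44), Zfp644, a partner of G9a (-0.41), and the methyltransferase gene Suv39h2 (-0.18). The related demethylase gene Jmjd1c stood at 10.24 and 10.49 in double-KO and at 10.82 and 10.60 in WT, a change of -0.34 ± 0.11 (adjusted p = 0.052). Kdm1a (0.30) was the member that rose, and Ehmt1 and Setdb1 were flat. With either WT array or either Jmjd1b-KO array left out, 3 members fell.

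Among Polycomb genes, Suz12, a core subunit of the H3K27 methyltransferase complex, stood at 12.78 and 12.98 in double-KO and at 11.67 and 11.52 in WT and rose by 1.29 ± 0.14 (adjusted p = 0.0015). Pcgf5 (1.09), Ezh1 (0.61), Rnf2 (0.51) and E2f6 (0.35) rose, and Kdm2b (-0.52), Pcgf6 (-0.46) and Cbx2 (-0.27) fell, among 17 measured. These shares, 29.4% that rose and 17.6% that fell, lay near the 28.1% and 19.8% of all measured genes. The falls numbered 1 without WT replicate 2 or double-KO replicate 1. The rises numbered 2 without WT replicate 1 and 3 without WT replicate 2, double-KO replicate 2 or either Jmjd1b-KO array. Eed (-0.12) and Jarid2 (0.01) did not pass the test, and Ezh2 was flat.

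Regulators of the G1 phase moved in both directions. Among 19 measured, 8 fell (42.1%, beside 19.8% of all measured genes) and 5 rose (26.3%, beside 28.1%). Beside Ccnd1, the cyclin genes Ccnd2 (-2.43 ± 0.20), Ccne1 (-1.5 ± 0.14) and Ccne2 (-0.24) fell, while Ccnd3 (-0.07) did not pass. The kinase inhibitor genes split: Cdkn1c (-3.95) and Cdkn1a (-1.11) fell, and Cdkn2a (2.41 ± 0.11), Cdkn1b (0.88) and Cdkn2b (0.60) rose. Cdkn2a stood at 9.27 and 9.38 in double-KO and at 6.78 and 7.04 in WT and was also higher than in Jmjd1a-KO (1.74) and Jmjd1b-KO (1.55). The pocket protein genes Rbl1 (0.96) and Rb1 (0.70) rose.

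Of 28 measured genes of DNA replication and mitosis 8 fell (28.6%, beside 19.8% of all measured genes) and 4 rose (14.3%, beside 28.1%). Rrm2, the small subunit of ribonucleotide reductase, fell by 1.22 ± 0.10, and Cdk1 rose by 0.57 ± 0.09. Both counts changed when single arrays were left out. The proliferation marker Mki67 stood at 10.95 and 10.87 in double-KO and at 10.72 and 10.28 in WT, a change of 0.41 ± 0.20 (adjusted p = 0.15).

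Among p53 targets 5 of 13 measured rose (38.5%, beside 28.1% of all measured genes) and 2 fell (15.4%, beside 19.8%). Pmaip1, the pro-apoptotic gene of NOXA (1.51 ± 0.15), and Perp (1.05 ± 0.11) rose most, and Cdkn1a and Mdm2 (-0.24) fell. The rises numbered 3 without double-KO replicate 2, WT replicate 1 or WT replicate 2. In the Bcl2 family the other rises were of the BH3-only genes Bcl2l11, known as BIM (1.67 ± 0.28), and Bmf (0.84), and Bid (-0.46) and Bok (-0.24) fell, a count of 0 without double-KO replicate 1 or either WT array and of 1 without double-KO replicate 2. Bcl2l11 stood at 10.52 and 9.64 in double-KO and at 8.39 and 8.42 in WT. The pro-survival gene Mcl1 (0.27, adjusted p = 0.12) did not pass the test, and Bcl2 and Bcl2l1 were flat.

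Glycolysis and hypoxia response genes rose in 11 of 28 measured members and fell in 3, with a median of 0.45. The rises count Higd1a, whose probe sets passed the test in opposite directions (0.55 and -0.21). Slc2a3, a glucose transporter, stood at 13.79 and 14.06 in double-KO and at 12.52 and 12.57 in WT and rose by 1.38 ± 0.16 (adjusted p = 0.0017). P4ha2, a collagen prolyl hydroxylase, rose by 1.24 ± 0.09, Ero1a by 1.67 ± 0.50 and Aldoc by 1.53 ± 0.48. The kinase gene Hk2 (-0.91), Epas1, of HIF-2 alpha (-0.69), and Pfkfb3 (-0.64) fell. The falls numbered 1 without double-KO replicate 1 or either WT array. The rises numbered 3 without either WT array, 4 without double-KO replicate 2, 7 without double-KO replicate 1 and 6 without either Jmjd1b-KO array. In Ero1a and Aldoc double-KO differed from Jmjd1a-KO by 0.35 and 0.13 and from Jmjd1b-KO by 0.10 and 0.15, none of them past the threshold.

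Immediate early genes rose in 6 of 10 measured members and fell in 0, and 3 rose without either WT array. Klf6 stood at 10.95 and 11.05 in double-KO and at 9.06 and 9.21 in WT and rose by 1.86 ± 0.08 (adjusted p = 0.00013). Jun (1.16), Fos (0.97), the phosphatase gene Dusp1 (1.44), Btg1 (1.34) and Zfp36 (0.68) rose. Fos stood at 7.51 and 6.90 in double-KO and at 6.13 and 6.34 in WT, and it was lower in double-KO than in Jmjd1b-KO (-5.16, adjusted p = 0.00015). Egr1 had unequal double-KO arrays, at 9.61 and 7.86, against 8.05 and 7.90 in WT.

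In BMP and Nodal signalling 5 of 19 measured genes rose (26.3%, beside 28.1% of all measured genes) and 2 fell (10.5%, beside 19.8%). The Nodal inhibitors Lefty1 (1.43 ± 0.27) and Lefty2 (-1.21 ± 0.33) moved apart. The pseudoreceptor gene Bambi (0.72), Bmpr1a (0.33) and Smad4 (0.30) rose, Smad5 (-0.59) fell and Nodal (0.51, adjusted p = 0.091) did not pass the test. The count of rises was 1 without WT replicate 1 and 3 without WT replicate 2.

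Genes of the 2-cell-like state were sparsely measured, 6 of 23 listed, of which 5 rose and 1 fell. Tcstv1 stood at 7.62 and 7.48 in double-KO and at 5.95 and 5.79 in WT, a rise of 1.68 ± 0.10 (adjusted p = 0.00026). Zfp352 (0.69), Dppa3 (0.76) and Arg2 (0.59) rose beside Usp17la, Zfp809, a repressor of retroviruses, fell by 0.86 ± 0.11, and Duxf3 was flat. Of the X-linked Rhox and Xlr genes, 5 of 24 listed were measured. Rhox5, a homeobox gene, stood at 8.46 and 8.73 in double-KO and at 10.61 and 10.68 in WT and fell by 2.05 ± 0.16, and it was below Jmjd1b-KO by -5.35 (adjusted p = 8.9e-05). Tsx (-0.84) fell and Tktl1 (0.37) rose.

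**Figure D5:**
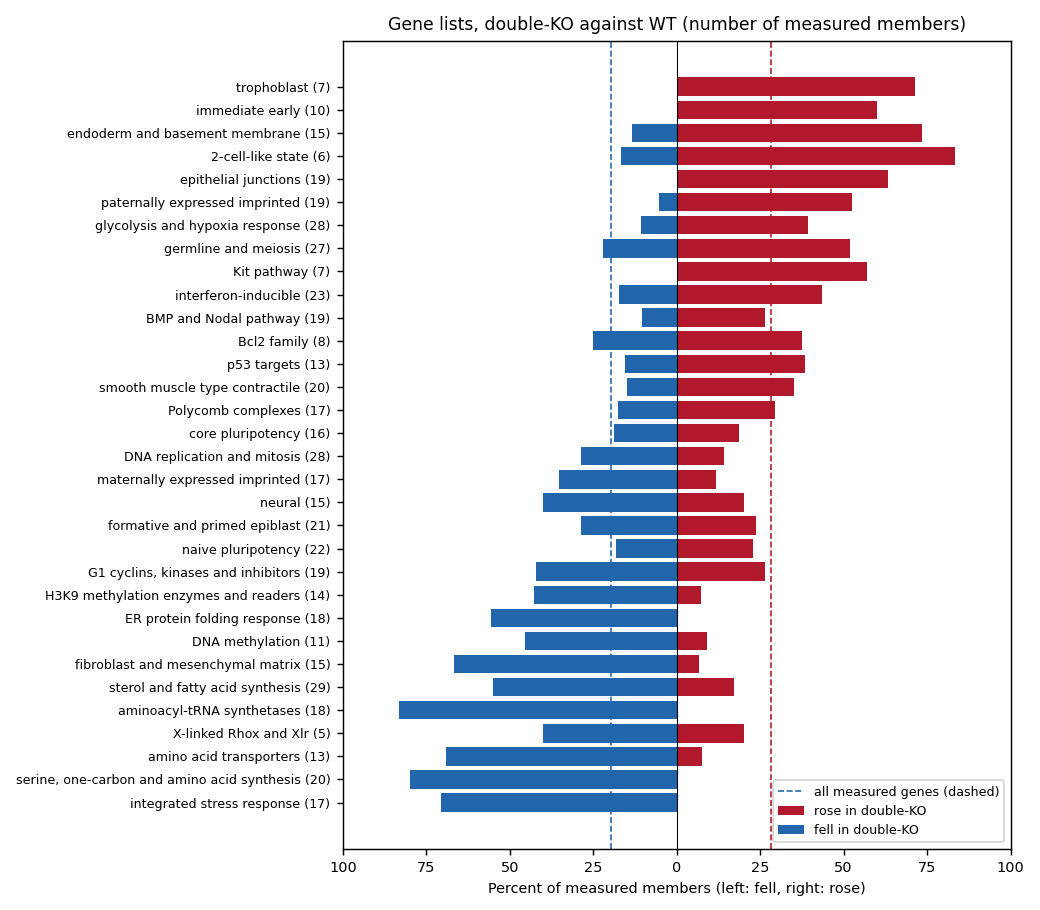
Share of measured members that rose (red, right) or fell (blue, left) in double-KO against WT for the 32 lists with at least 5 measured members, ordered by median change. Dashed lines give the shares over all measured genes, 28.1% that rose and 19.8% that fell, and the number of measured members follows each name. Amino acid supply lists lie at the foot with 69.2 to 83.3% that fell, and trophoblast, immediate early and endoderm lists at the head.

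By chromosome, the median change ran between -0.16 on chromosome 19 (253 genes) and 0.16 on the X chromosome (264 genes), Y set aside. On chromosome 19, 36.0% of genes fell and 15% rose. On the X chromosome 38.3% rose and 14.4% fell. Chromosome 1 had a median of -0.09 with 31.3% that fell. Gain or loss of chromosomes in these lines was not tested. On the Y chromosome 4 genes were measured and 0 passed the test, with the double-KO replicates far apart as given above.

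The 10 genes on either side of each deleted gene passed the test in shares not above the 47.9% of all measured genes. Of 10 measured neighbours of Kdm3a, 3 rose, led by Rnf103 (1.12), Krcc1 (0.66) and Reep1 (0.37), and Polr1a (-0.29) fell. Of 13 measured neighbours of Kdm3b, 4 rose, with Paip2 the highest (0.85), and Hspa9 (-0.23) fell. Where a gene had several probe sets past the threshold, 899 of 917 genes had them all in the same direction. The 18 that did not include Caprin1, Luc7l2, Higd1a and Hnrnpd, so the direction of those genes is not settled here.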

How the data were processed

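RNA of 8 mouse ES cell samples, 2 in each of 4 genotypes, was measured on Affymetrix arrays, 1 per sample. The authors deposited a table of log2 values, a unit read here from the values themselves. R 2.7.2 is named per the submitters' processing notes, but no source used here names the method of background correction or normalization. Precision is set by the small number of arrays, and scanner files were not used here. Groups came from the sample titles.

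Probe sets with a span of at least 0.01 over the 8 arrays (11502 of 45101) were fitted with limma 3.58.1 in R 4.3.3 (lmFit with 4 group means, eBayes, two-sided, 4 residual and 1.89 prior degrees of freedom). P-values were adjusted over these 11502 by the Benjamini-Hochberg method, threshold 0.05. Of them, 10405 had 1 gene symbol in the platform table, 364 several and 733 none. Each of 7181 genes was read from its informative probe set of 1 symbol with the highest mean over the 8 arrays. No test was run on a list: counts and medians are descriptive.

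Named genes were the 15 largest rises and 15 largest falls past the threshold whose double-KO and WT arrays did not overlap, Kdm3a, Kdm3b, and members of 34 lists (836 genes, 534 measured, 224 flat, 78 without a probe set of their own here). Genes named by chromosome neighbourhood or for opposed probe sets were picked after their values were seen. Members and lists were chosen with earlier results of these data known. Replicate numbers are shared between groups, but deviations of same-numbered arrays correlated between -0.04 and 0.24, so arrays were not paired. Promoter windows came from RefSeq (GRCm38.p6): 5825 measured genes matched. The fit was tested on simulated data. Alternatives covered scaling, filters, choice of probe set, error model, arrays fitted and thresholds; a fit without Jmjd1a-KO arrays was added after seeing the data. Plots came from Python 3.11.15 with matplotlib 3.10.9.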

Additional observations from a re-analysis of the deposited data

How the results depend on the processing

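The count of genes past the threshold in double-KO against WT was 3441, and it kept within 1.5 times of that under rescaling, another choice of probe set and other error models. Without the filter on flat probe sets it was 1534 (948 higher, 586 lower). At an adjusted p under 0.01 it was 1934 (1190 and 744), and with a log2 change of at least 1 it was 777 (471 and 306). Leaving out 1 array gave 2080 to 3879 genes (1253 to 2218 higher, 796 to 1661 lower), with the low counts from omitting WT replicate 1 or 2.

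Against Jmjd1a-KO the count of 2128 was 509 without the filter, 1234 with no moderation, 361 with only these groups fitted, 1063 with array weights, 735 at 0.01 and 371 at a change of 1. Leaving out 1 array gave 1160 to 2170, the lowest without double-KO replicate 1. Against Jmjd1b-KO the count of 3692 was 1827, 2205 and 868 for the filter, the stricter p and the change of 1. Leaving out 1 array gave 2157 to 4176, with 2294 and 2157 without Jmjd1b-KO replicate 1 and 2.

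Same-numbered arrays were not paired, although Y-linked RNA was low on replicate 2 of both double-KO and Jmjd1a-KO. With the replicate number as a block the counts were 3180, 1851 and 3466 in the same order of comparisons. Without the Jmjd1a-KO arrays, an alternative chosen after seeing the data, 3879 genes passed against WT. The share of higher calls was 58.7%, and 53.3% after quantile normalization. Of 330 named and listed genes, 158 lost their call without the filter, 166 with a change of at least 1 required, 107 at 0.01, 67 with no moderation, 25 with the block, 107 and 101 without WT replicate 1 and 2, 62 and 56 without double-KO replicate 1 and 2, and 45 without either Jmjd1b-KO array. No direction reversed among them. Of the largest changes, Anxa2, Mymx, Ndrg1 and Rnf128 missed the threshold without the filter, and Snhg14 did so there, at 0.01 and without double-KO replicate 1. The cause was not tested beyond the fewer arrays or more probe sets these settings use. No level was set against background, so low levels limit the sizes of changes.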
